A study of Mus musculus with 2 samples.

Results

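The genes described here are 8 genes of the cellular oxygen response in mouse brown adipose tissue, found by symbol among the 10778 symbols of the deposited table: the factor subunits Hif1a, Epas1 and Arnt, the hydroxylases Egln1 and Egln3, and the target genes Vegfa, Bnip3 and Ndrg1. They were chosen as known members of the pathway, at a time when earlier results of these data were known. All 8 were in the table, in 16 transcript rows. The SML library came from male C57BL6/J mice, 8 to 12 weeks old, on a high-fat diet (60% of kcal) for 10 days, which received SML at 5 mg per kg body weight by intraperitoneal injection. The HFD control library came from mice of the same sex, strain and age on the same diet without SML. The title of the series names sesaminol, while the sample labels write SML. The sources used here give neither a vehicle injection for the controls nor the number of animals behind a library.

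Hypoxia-inducible factors are pairs of an alpha subunit, encoded by Hif1a or Epas1, and the beta subunit encoded by Arnt. When oxygen is plentiful, prolyl hydroxylases encoded by the Egln genes mark the alpha proteins for capture by the von Hippel-Lindau protein and breakdown, so much of the regulation acts on protein and is not read by RNA sequencing. When oxygen is scarce the alpha proteins persist and switch on genes for vessel growth, glycolysis and mitochondrial turnover, and the hydroxylase genes Egln1 and Egln3 are themselves targets. Brown fat consumes much oxygen and is densely supplied with vessels, and its adipocytes are a known source of VEGF-A.

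Each group was 1 library, with an estimated 8507264 fragments in the SML table and 12005329 in the HFD control table. The values below therefore compare 2 libraries and carry no p-value. Levels are FPKM (fragments scaled for transcript length and library size) as computed by the authors, which allow genes to be compared with each other. Ratios are SML over HFD control in the deposited scaled counts, with a 95% exact conditional binomial interval that covers counting error only, neither the spread between animals nor duplicate PCR molecules. A gene is called higher or lower when FPKM + 1 differed by at least 1.5-fold, which understates the difference of genes with low values. In bulk tissue, fewer cells of a type and less RNA per cell cannot be told apart.

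The core that these factors recognise reads ACGTG or GCGTG, and it was searched on both strands from 250 bases before to 50 bases after each RefSeq gene start (build GRCm38.p6, the same genome as the mm10 of the table). The sequences below are the stretches before the start, from 10 bases ahead of the first match to 10 past the last, of the alpha subunit gene Hif1a and of 3 known targets of the pathway, shown so that the placing of the core in them can be compared. They read 5′ to 3′ on the strand of the gene, and capitals mark the core on either strand.
Hif1a, chr12:73907722-73907811, plus strand: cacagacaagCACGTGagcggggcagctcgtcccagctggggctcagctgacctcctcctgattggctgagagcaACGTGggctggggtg
Bnip3, chr7:138909527-138909633, minus strand: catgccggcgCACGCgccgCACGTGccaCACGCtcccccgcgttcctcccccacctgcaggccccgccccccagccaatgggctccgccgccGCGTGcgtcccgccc
Egln1, chr8:124949308-124949390, minus strand: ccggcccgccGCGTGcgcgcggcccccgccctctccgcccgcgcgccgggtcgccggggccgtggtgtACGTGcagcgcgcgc
Egln3, chr12:54204089-54204113, minus strand: tgcatctcagACGTGagatccaggt

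Bnip3 held 5 matches in its window and Hif1a held 3, counting a CACGTG once on each strand because ACGTG reads there in both directions. Egln1 had GCGTG at 126 and ACGTG at 68 bases before its start, Egln3 had ACGTG at 229 bases, and Arnt had GCGTG at 29 bases. For 6 of the 8 genes a promoter was matched, not for Epas1 and Ndrg1, and 5 of the 6 held the core in the window at the outermost start. The window at the outermost start of Vegfa did not hold the core, and a second Vegfa window at an inner start held 2 matches. For Hif1a and for this inner Vegfa window, 0 annotated transcripts of the gene held the bases after the start, so these starts are less certain. The core is common, as 62.9% of the 9686 promoters of genes kept here and 43.8% of all 32851 promoters held it. Of the promoters of genes kept, 34.5% held 2 or more matches and 7.56% held 4 or more. A match is only a run of letters and does not show binding, and a window of 300 bases without one says nothing about sites outside it.

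By the size rule 2 of the 8 genes were higher in the SML library, Hif1a and Epas1, and 1 was lower, Ndrg1, with 5 neither. Over all 9887 genes with a mean of at least 1 FPKM, 5.44% were higher and 5.76% lower, or 11.2% in either direction. All 8 members passed that filter. The difference in log2(FPKM + 1) was above 0 in 6 of the 8, with a median of 0.27 against 0 over all genes. The interval of the count ratio left out 1 for 6 members and included it for Arnt and Egln3, and at this depth it left out 1 for 48.6% of all 9887 genes.

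**Figure D1:**
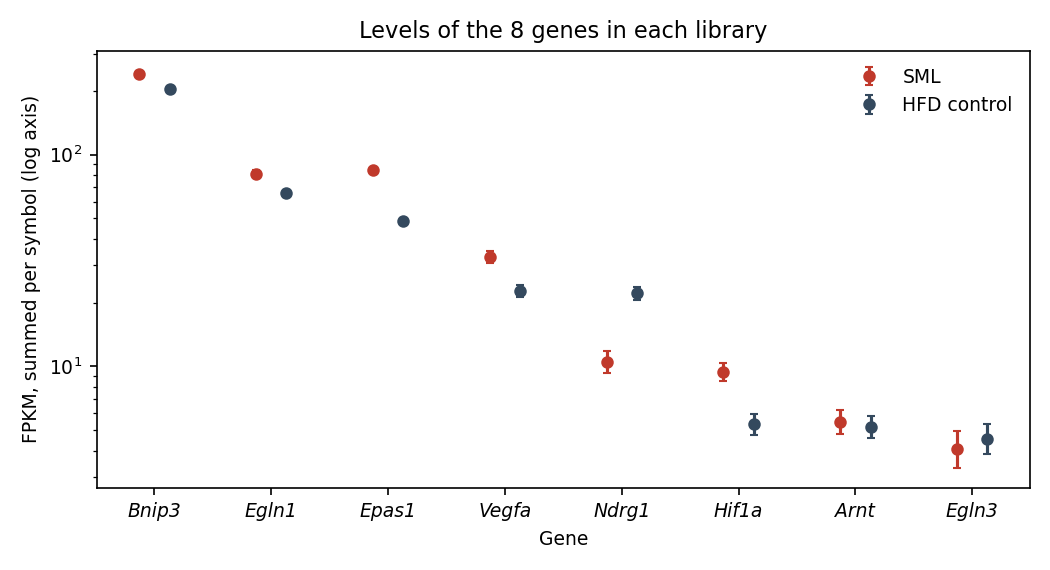
FPKM of the 8 genes on a log axis, summed over transcript rows, with SML in red left of HFD control in dark blue and 95% Poisson intervals on fragments as bars. Bnip3 is the highest of the 8 in both libraries (242 FPKM in SML and 205 in HFD control), and Ndrg1 is the gene with the widest gap, at 10.5 FPKM in SML and 22.1 in HFD control.

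The genes spanned a wide range of levels. Bnip3 stood above 95.2% of kept genes in the SML library and above 94.1% in the HFD control library. In the SML library it was followed by Epas1 at 84.2 FPKM, Egln1 at 81.3, Vegfa at 32.7, Ndrg1 at 10.5, Hif1a at 9.38, Arnt at 5.47 and Egln3 at 4.07. The counting intervals of neighbours overlapped there for Epas1 and Egln1, for Ndrg1 and Hif1a, and for Arnt and Egln3. In the HFD control library the order after Bnip3 was Egln1 at 65.6 FPKM, Epas1 at 48.6, Vegfa at 22.6, Ndrg1 at 22.1, Hif1a at 5.32, Arnt at 5.18 and Egln3 at 4.53. There Vegfa could not be ordered against Ndrg1, nor could Hif1a, Arnt and Egln3 among themselves. Epas1 thus stood above Egln1 in 1 library and below it in the other.

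Both alpha subunit genes were higher in the SML library and by nearly the same count ratio. Hif1a (chr12:73907867-73947530), the broadly expressed alpha subunit gene, had 1 transcript row with 9.38 FPKM and a scaled count of 363 in SML, against 5.32 FPKM and 206 in HFD control. Its ratio was 1.76 (1.52 to 2.04), resting on 419 fragments in SML and 323 in HFD control. Hif1a was above 53.2% of kept genes in the SML library and above 39.8% in the HFD control library. After a trend with GC content and length across genes was removed, its log2 difference was 0.47 in place of 0.72, below the 0.58 that the size rule asks for, so the Hif1a call depends on that setting. The longest annotated Hif1a transcript has a GC content of 41.3%, against a median of 50.3% over the genes kept.

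Epas1 (chr17:86753864-86833410) encodes HIF-2 alpha, known from endothelial cells and from adipocytes. Its single row had 84.2 FPKM and a scaled count of 3675 in SML, against 48.6 FPKM and 2123 in HFD control. The ratio was 1.73 (1.65 to 1.81) on 4246 fragments in SML and 3333 in HFD control, and the log2 difference was 0.79 after that trend was removed and 0.78 before. Per length, the Epas1 level was 8.98 times that of Hif1a in the SML library and 9.13 times in the HFD control library. In the deposited FPKM the balance of the alpha subunit transcripts was thus nearly the same. After the GC and length trend was removed the log2 differences were less alike, at 0.47 for Hif1a and 0.79 for Epas1. Of 16 endothelial marker genes 0 were higher and 3 lower in SML, with a median log2 difference of -0.39 and a summed level of 272 FPKM in SML and 397 in HFD control, and their part in the Epas1 value was not tested.

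Arnt (chr3:95434390-95497239), the common partner of both alpha subunits, had nearly the same total in the libraries. Its sum was 5.47 FPKM and a scaled count of 192 in SML, against 5.18 FPKM and 182 in HFD control, with a ratio of 1.06 (0.88 to 1.27). Its 2 transcript rows went opposite ways. Row TCONS_00020494 had 2.38 FPKM and a scaled count of 84.1 in SML, against 0.96 FPKM and 34.1 in HFD control, a ratio of 2.47 (1.76 to 3.54). Row TCONS_00020495 had 3.09 FPKM and a scaled count of 108 in SML, against 4.22 FPKM and 148 in HFD control, a ratio of 0.733 (0.584 to 0.914). The first row therefore held 43.5% of Arnt FPKM in SML and 18.5% in HFD control. These intervals treat the fragments as assigned without error, whereas the authors' software estimated the split between rows of a locus, and both rows carry the same coordinates, so the table does not say which exons differ. Relative to Arnt, the Hif1a level was 1.71-fold in SML and 1.03-fold in HFD control, and the Epas1 level 15.4-fold in SML and 9.38-fold in HFD control.

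**Figure D2:**
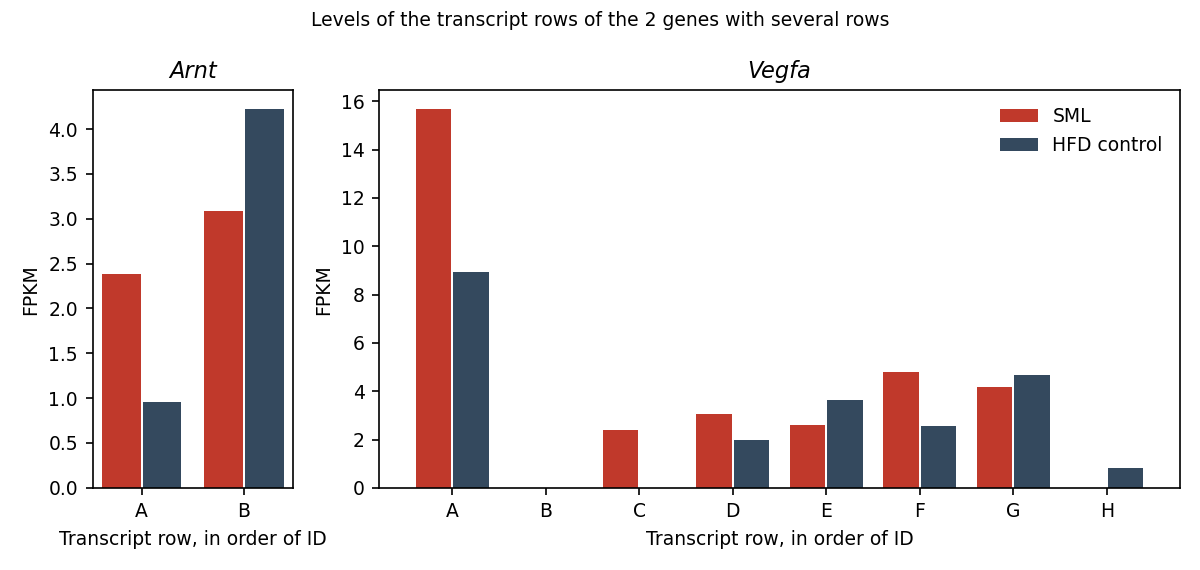
FPKM of the 2 transcript rows of Arnt and the 8 of Vegfa, with SML in red left of HFD control in dark blue and rows lettered in the order of their identifiers. The Arnt rows differ in opposite directions, and Vegfa row A (TCONS_00014264) is the highest Vegfa row in both libraries, at 15.7 FPKM in SML and 8.92 in HFD control.

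None of the oxygen sensor genes passed the size rule, which 11.2% of all genes passed in either direction. Egln1 (chr8:124908587-124949254) encodes PHD2, the main prolyl hydroxylase acting on the alpha subunits at normal oxygen. It had 81.3 FPKM and a scaled count of 2293 in SML, against 65.6 FPKM and 1851 in HFD control, a ratio of 1.24 (1.17 to 1.31). Egln3 (chr12:54178981-54203874) encodes PHD3, known as the most strongly hypoxia-induced hydroxylase of the family. It had 4.07 FPKM and a scaled count of 85.7 in SML, against 4.53 FPKM and 95.6 in HFD control. Its ratio of 0.897 (0.689 to 1.16) rested on 99 fragments in SML and 150 in HFD control, so at this depth no difference was detectable. The Egln1 level was 19.97 times that of Egln3 in SML and 14.5 times in HFD control.

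The other sensor genes were close to a ratio of 1. Egln2, which encodes PHD1, stood at 34.1 FPKM in SML and 30.6 in HFD control, a ratio of 1.11 (1.00 to 1.24). Hif1an, the asparagine hydroxylase that blocks coactivator binding, had a ratio of 0.854 (0.728 to 1.00), and Vhl, the von Hippel-Lindau gene, was at 7.01 FPKM in both libraries. Of 17 measured genes of oxygen sensing and factor turnover 0 were higher and 0 lower, next to 5.44% and 5.76% over all genes. Their median log2 difference was -0.01, from -0.39 for Usp20 to 0.31 for Tceb1, which encodes elongin C. Ubxn7, a further gene of this list outside the rule for named genes, was listed at 0 FPKM in SML although it had 105 fragments there and 140 in HFD control. Among 10 measured co-regulators of the factors 0 were higher and 1 lower, Pkm, next to the same shares over all genes. Their median was 0.02, with the highest value, 0.55, for Cdk8. Pkm, also on the glycolytic list below, fell short of the rule after the GC and length trend was removed, at -0.53. With the highest row per symbol 0 co-regulators were lower, and from the count columns 2 were higher and 2 lower.

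Vegfa (chr17:46016993-46032377), the main growth factor for blood vessels and a classical target of the pathway, was higher in the SML library without reaching the size rule. Its 8 rows summed to 32.7 FPKM and a scaled count of 824 in SML, against 22.6 FPKM and 581 in HFD control. The ratio was 1.42 (1.30 to 1.56) on 953 fragments in SML and 912 in HFD control, and the log2 difference was 0.52. With only the highest row of each gene that difference was 0.75 and past the rule.

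In the estimated split the Vegfa rows were not alike, as 4 had more in SML, 3 had less and 1 had under 1 scaled count in both libraries. As for Arnt, the intervals of single rows treat the fragments as assigned without error, whereas the authors' software estimated the split between rows of the same coordinates. The leading row, TCONS_00014264, had 15.7 FPKM and a scaled count of 351 in SML, against 8.92 FPKM and 200 in HFD control, a ratio of 1.75 (1.51 to 2.04). It held 47.8% of Vegfa FPKM in SML and 39.5% in HFD control. All other rows together had 17.1 FPKM in SML and 13.7 in HFD control.

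Among these other rows TCONS_00014270 had 4.81 FPKM and a scaled count of 136 in SML, against 2.54 FPKM and 72.0 in HFD control, a ratio of 1.89 (1.47 to 2.43). TCONS_00014267 had 3.05 FPKM and a scaled count of 86.2 in SML, against 2.0 FPKM and 56.7 in HFD control, a ratio of 1.52 (1.14 to 2.05). TCONS_00014266 had 2.41 FPKM and a scaled count of 49.9 in SML, and both values were listed at 0 in HFD control. These are the remaining rows with more in SML, the last of them with no fragment assigned in HFD control.

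TCONS_00014271 had 4.18 FPKM and a scaled count of 116 in SML, against 4.65 FPKM and 129 in HFD control, a ratio of 0.898 (0.719 to 1.13). TCONS_00014269 had 2.62 FPKM and a scaled count of 72.5 in SML, against 3.64 FPKM and 101 in HFD control, a ratio of 0.719 (0.548 to 0.947). TCONS_00014272 was listed at 0 FPKM with a scaled count of 12.5 in SML, against 0.84 FPKM and 22.4 in HFD control, a count ratio of 0.559 (0.270 to 1.04). Of these rows with less in SML, the intervals of the first and the last include 1. The count of that row implies 0.47 FPKM in SML, which would bring the Vegfa sum there to 33.2 FPKM. TCONS_00014265 was listed at 0 FPKM in both libraries, with scaled counts of 0.24 in SML and 0.01 in HFD control. All 8 rows share their coordinates and carry no isoform name, so they could not be matched to the known splice forms of VEGF-A.

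Of the VEGF system around it, Nrp1, which encodes the co-receptor neuropilin-1, was the gene called higher, at 36.3 FPKM in SML and 22.0 in HFD control with a ratio of 1.65 (1.55 to 1.76). Its log2 difference of 0.70 dropped below the rule, to 0.49, after the same trend was taken out. The receptor genes Kdr and Flt1 had ratios of 0.699 (0.620 to 0.787) and 0.869 (0.720 to 1.05). Vegfb, a related ligand gene, was far more abundant than Vegfa, at 297 FPKM in SML and 268 in HFD control, with a ratio of 1.10 (1.05 to 1.16). Angptl4, a fasting- and hypoxia-induced inhibitor of lipoprotein lipase, was lower, at 133 FPKM in SML and 234 in HFD control. Over the 17 measured angiogenic genes 1 was higher and 1 lower, next to 5.44% and 5.76% over all genes. Their median was -0.15. The endothelial markers, a list that shares 3 genes with the angiogenic one (Kdr, Flt1 and Tek), had a median of -0.39. The part of endothelial cell content in these values was not tested.

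**Figure D3:**
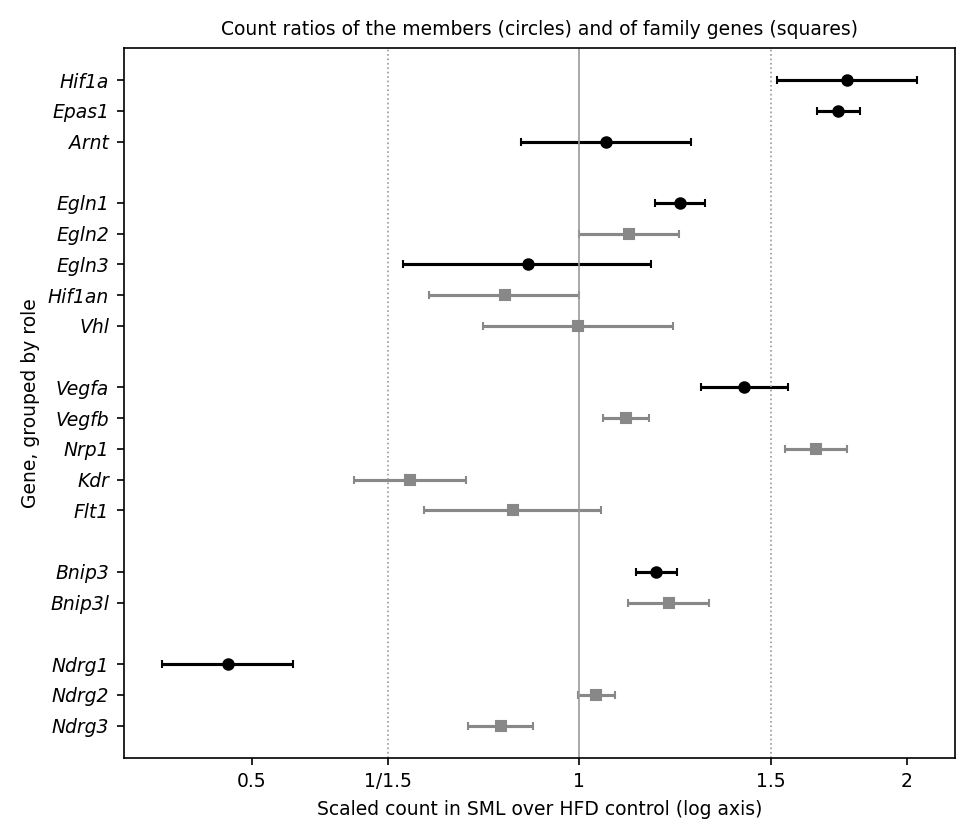
Scaled count in SML over HFD control on a log axis, with 95% intervals for counting error, for the 8 members (circles) and for genes of the same families or steps (squares), grouped by role. Solid and dotted lines mark a ratio of 1 and a 1.5-fold difference. Hif1a and Epas1 lie together at 1.76 and 1.73, and Ndrg1 lies alone at 0.475 beside Ndrg2 at 1.04 and Ndrg3 at 0.846.

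Bnip3 (chr7:138890836-138909506), whose product on the outer mitochondrial membrane marks mitochondria for autophagy, was slightly higher in the SML library. Its row had 242 FPKM and a scaled count of 3209 in SML, against 205 FPKM and 2725 in HFD control, a ratio of 1.18 (1.13 to 1.23). Taking out the GC and length trend reduced the log2 difference to 0.09, against 0.24 without. Bnip3 values are uncertain in 1 respect, since 4 other annotated genes elsewhere hold stretches of at least 95% identity to its transcripts, the longest of 858 bases, and the sources used here do not state how such reads were placed.

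Bnip3l, the closest relative with the same role, went the same way at 33.3 FPKM in SML and 27.5 in HFD control, a ratio of 1.21 (1.11 to 1.32). The Bnip3 level was 7.25 times that of Bnip3l in SML and 7.43 times in HFD control. Of the 14 measured genes of this family and of hypoxic mitophagy 0 were higher and 0 lower, next to 5.44% and 5.76% over all genes. Their median was -0.10, from -0.31 for Map1lc3a, an autophagosome protein gene, to 0.45 for Fundc1, a mitophagy receptor gene at 14.2 FPKM in SML and 10.1 in HFD control.

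Ndrg1 (chr15:66929318-66969641), a stress-responsive gene that is induced by hypoxia in many cell types, was the member with the largest difference. Its row had 10.5 FPKM and a scaled count of 241 in SML, against 22.1 FPKM and 507 in HFD control. It was 2.10-fold lower (1.83 to 2.42) on 278 fragments in SML and 795 in HFD control, with a log2 difference of -1.004, and of -0.99 once the GC and length trend was removed. Differences of at least 2-fold on the same scale toward lower values were found in 1.96% of all genes. Ndrg1 was above 56.2% of kept genes in SML and above 71.7% in HFD control.

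Its relatives stood nearer to a ratio of 1. Ndrg2 stood at 234 FPKM in SML and 225 in HFD control, a ratio of 1.04 (0.997 to 1.08), and Ndrg3 at 57.2 FPKM in SML and 67.5 in HFD control, a ratio of 0.846 (0.791 to 0.906). Exons of the genes Gm17035 and Gm2895 lie on the opposite strand of Ndrg1 over up to 329 and 137 bases, exons of Gm45507 opposite Bnip3 over up to 342, and exons of Gm15283 opposite Hif1a over up to 191. Exons of Gm49321 overlap Hif1a on the same strand over up to 148 bases, where strand would not separate them. The sources used here do not state whether strand was kept.

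**Figure D4:**
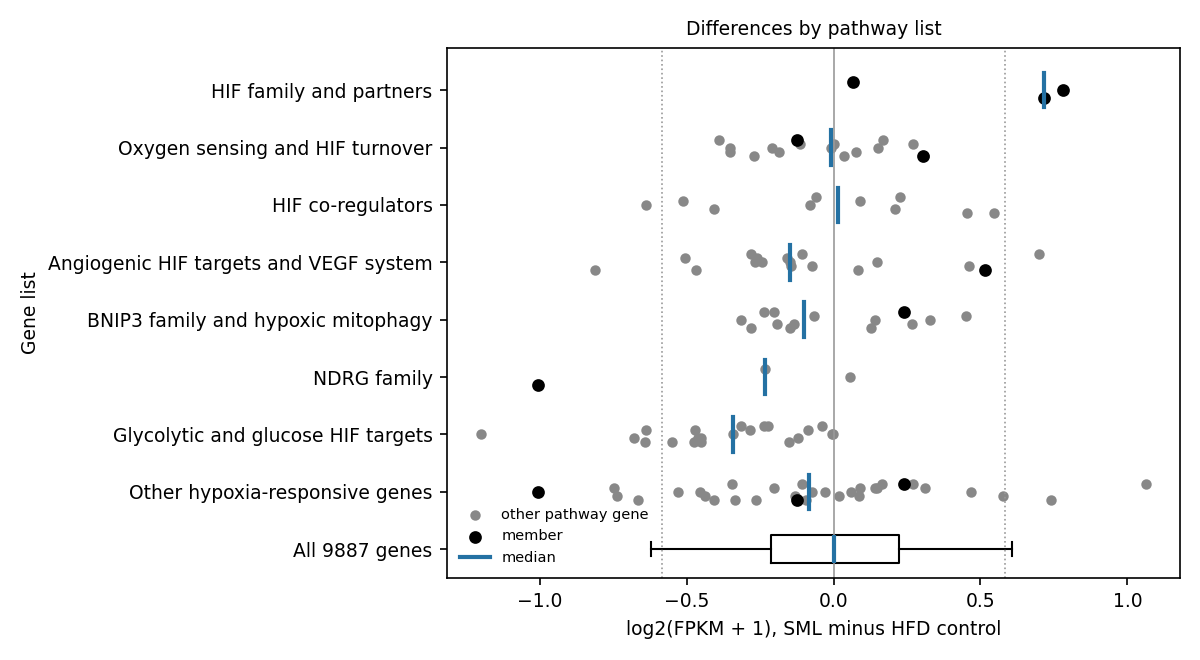
Difference in log2(FPKM + 1), SML minus HFD control, for each measured gene of 8 pathway lists (members in black, other genes in grey, list medians as blue bars), above a box of all 9887 genes with quartiles and whiskers at percentiles 5 and 95. Dotted lines mark the 1.5-fold rule. The glycolytic list has the lowest median of the 8, at -0.34, and the list of the 3 measured factor genes the highest, at 0.72.

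The wider set of pathway genes was mixed. Of 105 measured genes besides the 8 members 3 were higher (2.86%) and 8 lower (7.62%), next to 5.44% and 5.76% over all genes, and their median was -0.14 against 0. The list of other hypoxia-responsive genes had 2 of 32 higher and 4 lower, Ndrg1 included, and a median of -0.08. Tfrc, the transferrin receptor gene that takes up iron and is known as a target of the factors, was 2.17-fold higher (1.99 to 2.38), with 28.2 FPKM in SML and 12.96 in HFD control. Bhlhe40, a transcriptional repressor gene induced by hypoxia and part of clock feedback, was 1.70-fold higher (1.55 to 1.86), with 39.3 FPKM in SML and 23.2 in HFD control.

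The lower genes of that list were Cdkn1a, a cell cycle inhibitor gene (1.72-fold, 1.51 to 1.95), Hmox1, the heme oxygenase gene (1.74-fold, 1.41 to 2.16), and Hilpda, a hypoxia-induced lipid droplet gene (1.66-fold, 1.26 to 2.21). Hilpda rested on 74 fragments in SML and 167 in HFD control. After removal of that trend Tfrc, Bhlhe40, Cdkn1a and Hmox1 were still past the rule and Hilpda was not, at -0.51. Ddit4, a hypoxia-induced inhibitor of the mTOR pathway, was alike in both, at 12.9 FPKM in SML and 12.7 in HFD control.

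The glycolytic targets lay below 0 in 21 of 21 measured genes, where the median over all genes was 0. This held for 18 with totals made equal outside the 50 highest genes and for 20 after removal of the GC and length trend. By the size rule 0 were higher and 4 lower (Hk1, Aldoa, Gapdh and Pkm), next to 5.44% and 5.76% over all genes. Values ran from -1.20 for Hk1 to just under 0 for Pdk1, which restrains pyruvate entry into mitochondria. The interval of the count ratio included 1 for Pdk1, Pfkfb3, Pfkfb4, Gys1, Pgm1 and Slc2a1. After removal of the GC and length trend 1 was lower, Hk1. Slc2a1, the glucose transporter gene known as a direct target, had a ratio of 0.867 (0.628 to 1.19) on 67 fragments in SML and 105 in HFD control. Slc16a3, a lactate exporter gene known as a target and named here after its values were seen, had 0 fragments in SML and 44 in HFD control, and its mean of 0.75 FPKM was below the filter, so it was not called.

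Markers of other cells also differed between the libraries. Of 20 measured skeletal muscle fibre genes 20 were lower, with a median of -3.55 and a summed level of 507 FPKM in SML and 4956 in HFD control. Skeletal muscle expresses glycolytic enzymes and Slc16a3 at high levels, and the part of muscle tissue in the values above was not tested. Of 12 macrophage markers 7 were lower and 1 higher (summing to 295 FPKM in SML and 478 in HFD control). Of 6 red cell markers 6 were lower (1864 FPKM in SML and 3740 in HFD control). Pericyte and smooth muscle markers had 3 of 12 lower (179 FPKM in SML and 236 in HFD control), and fibroblast markers 1 of 9 higher and 1 lower (376 FPKM in SML and 521 in HFD control). Of 6 liver markers 5 were lower, while Cyp2e1 was at 52.8 FPKM in SML and 42.6 in HFD control. Alb and Ttr were listed at 0 FPKM in SML, against 6.4 and 3.33 in HFD control. Fga, Fgb and Ahsg, below the filter, were also listed at 0 in SML, against 0.17, 0.22 and 1.13 in HFD control. A listed 0 need not mean that no fragment was found. Across the libraries, 1443 rows in SML and 274 in HFD control had 0 FPKM with a count above 0. The liver genes in the table summed to 58.71 FPKM in SML and 80.45 in HFD control. S100a8 and S100a9, the neutrophil genes in the table, summed to 7.55 FPKM in SML and 5.24 in HFD control, and 1 of the 2 was higher. The brown adipocyte markers were abundant in both libraries, where 1 of 12 was higher and 0 were lower at a median of 0.08, with sums of 52613 FPKM in SML and 55710 in HFD control. How far any of these cell types contributed to the values of the 8 genes was not tested.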

How the data were processed

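Poly(A) RNA of brown adipose tissue was sequenced with a TruSeq kit per the labels' protocols. The authors deposited 1 table with FPKM and count columns per library. CASAVA 1.8, Cufflinks and mm10 were used per the submitters' processing notes, while the sources used here do not give aligner, annotation or filters. Both count columns, as deposited, hold a scaled signal and not raw counts: low values moved in steps of 0.866 in SML and 0.637 in HFD control, and 90.2% and 90.6% of low values were whole multiples within 0.1. Dividing by the step gave the fragments behind the intervals and the fragment totals, all of which are estimates. Starts were turned to 1-based coordinates. Rows were summed per symbol with Python 3.11.15, pandas 2.3.3 and scipy 1.17.1, a pseudocount of 1 FPKM and a mean of at least 1 FPKM. Named genes were the 8 members, every pathway gene past 1.5-fold and otherwise the ends of each list; Egln2, Hif1an, Vhl, Vegfb, Kdr, Flt1, Bnip3l, Ndrg2, Ndrg3, Ddit4, Slc2a1, Slc16a3 and Ubxn7 were added after their values were seen. With 2 libraries a pattern is 1 difference, so no genes of similar pattern were sought. Members and lists were chosen with earlier results of these data known. The calls and intervals were tested on simulated Poisson counts, which hold counting error only. Such counts cannot test for the spread between animals or errors in the split of fragments between rows. GC content and length came from the longest GENCODE M21 transcript per symbol, known for 96.3% of genes. All sample columns were used.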

Additional observations from a re-analysis of the deposited data

How the results depend on the processing

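No paired analysis was possible because each group had 1 library, and for the same reason no replicate could be left out. Epas1 stayed higher and Ndrg1 lower by the 1.5-fold rule in the 4 of 7 other settings that could alter them. These were the pseudocount, the count columns, totals outside the highest genes, and the GC and length trend. Log2 differences there ran from 0.79 to 0.83 for Epas1 and from -1.07 to -0.96 for Ndrg1. Hif1a ranged from 0.47 to 0.81 and fell short with the GC content and length trend removed, where 1 member was higher in place of 2. Vegfa ranged from 0.50 to 0.75 and passed with the highest row per symbol. The Arnt difference of 0.07 was -0.35 with that row alone. With that trend removed the pathway genes had 3 higher and 5 lower in place of 5 and 9, and all genes 343 higher in place of 538. Pathway genes higher were 9 with a pseudocount of 0.1 FPKM, 10 from the count columns and 8 with the highest row per symbol. All genes higher were 847 with that pseudocount and 883 from the count columns. Without a filter 1117 of 10778 genes were lower in place of 569 of 9887. FPKM listed at 0 were uneven, as 1443 rows in SML and 274 in HFD control had 0 FPKM with a count above 0. At a mean of at least 5 FPKM 319 genes were higher and 306 lower. By a 2-fold rule 0 members and 1 pathway gene were higher and 2 pathway genes lower, with 66 genes higher and 194 lower in all. Equal totals outside the 50 highest genes shifted the median of all genes by 0.05. Filling in FPKM listed at 0 from the counts, an alternative added after seeing the data, changed no member's call. Why these values move was not tested. At an estimated 8507264 and 12005329 fragments, depth limits Egln3, Arnt and the single rows of Vegfa most.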
